A study of Mus musculus with 4 samples.

Results

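The genes of autophagy and the lysosome were examined for accessible chromatin in lymphoid tissue inducer (LTi) cells, innate lymphocytes that initiate the formation of lymph nodes and Peyer's patches. The set was defined by gene symbol. It holds every mouse protein-coding gene named Atg with a number, Atp6v, Map1lc3, Gabarap, Ulk, Wipi, Lamp or Cts with 1 letter, plus Becn1, Sqstm1, Tfeb and Tfe3, which gave 78 of 21896 genes in the RefSeq annotation of GRCm38.p6. Accessible regions, called islands, were given to the gene with the nearest end, of either kind, within 50 kb. By this rule 62 of 16584 islands belonged to the set, and 55 of the 78 genes (70.5%) had at least 1 island, beside 10760 of 21883 protein-coding genes outside mitochondrial DNA (49.2%).

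Chromatin was profiled by DNase-seq, in which the nuclease DNase I cuts open DNA and the cut ends are sequenced. The series holds 2 libraries of Tcf7-KO cells (Tcf7 fl/fl with a Cre recombinase, where Tcf7 encodes TCF-1) and 2 control libraries (Tcf7+/+), all from Peyer's patches of C57BL/6 mice. Each library started from 300 cells sorted as CD127+ and CCR6+ and negative for lineage markers, NK1.1, NKp46 and KLRG1. The labels state no age, sex or number of mice per library. The table analysed has 2 read counts per island, named peak and control, neither of them tied to a library or genotype, so Tcf7-KO and control cells were not compared and every value below describes the table as a whole.

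In all islands together there were 425134 peak-side reads and 645087 control-side reads, and the depth of single libraries is unknown. The fold of an island is its peak-side reads over its control-side reads multiplied by the factor behind the deposited folds, 0.345, and its interval is an exact (Clopper-Pearson) 95% interval from both counts. There are no replicate values, so these intervals cover counting error only, and sequenced reads can be copies of 1 molecule. The authors' deposited table gives each island a false discovery rate (FDR), and an island under 0.05 is termed called. No island in the table has fewer than 8 peak-side reads, so the lack of an island does not show closed chromatin, and a gene can also lack one because the island over its start went to a neighbour. With bulk libraries, a site open in few cells and a site cut rarely in many cells cannot be told apart. As a check of the cell type, Il7r, Kit and Cxcr5, receptors that LTi cells carry, had 2, 4 and 4 islands, all called in the authors' deposited table. Cd3e and Csf1r, which mark T cells and macrophages, had none.

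Autophagy encloses cytoplasm in a double membrane and delivers it to the lysosome for breakdown. The ULK kinase complex starts the process, a lipid kinase complex with Beclin 1 marks the membrane, and ubiquitin-like conjugation attaches ATG8 proteins (LC3 and GABARAP) to it. The vacuolar H+-ATPase acidifies the lysosome, LAMP proteins line its membrane and cathepsins digest its contents. TFEB and TFE3 are transcription factors that bind an E-box within the CLEAR element of many such genes, and autophagy is known in mice to support the development of innate lymphocytes such as natural killer cells.

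The promoter windows below are shown because islands lay over them and because their letters bear on that E-box. Each covers 250 bases before to 50 after a start site (RefSeq, GRCm38.p6), 5′ to 3′ on the gene's strand, with CACGTG, the core of the E-box, in capitals. The first 7 hold it and the last 2, at the genes of the set with the most peak-side reads, do not. Lamp1 was added after its values were seen, for its 4 copies.
Lamp1 (chr8:13158911-13159210, plus strand): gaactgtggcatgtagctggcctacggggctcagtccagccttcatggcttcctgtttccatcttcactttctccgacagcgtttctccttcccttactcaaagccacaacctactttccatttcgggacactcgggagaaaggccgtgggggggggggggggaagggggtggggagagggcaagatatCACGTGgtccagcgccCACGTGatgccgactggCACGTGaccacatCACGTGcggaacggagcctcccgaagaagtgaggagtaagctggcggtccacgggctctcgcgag
Atg3 (chr16:45158579-45158878, plus strand): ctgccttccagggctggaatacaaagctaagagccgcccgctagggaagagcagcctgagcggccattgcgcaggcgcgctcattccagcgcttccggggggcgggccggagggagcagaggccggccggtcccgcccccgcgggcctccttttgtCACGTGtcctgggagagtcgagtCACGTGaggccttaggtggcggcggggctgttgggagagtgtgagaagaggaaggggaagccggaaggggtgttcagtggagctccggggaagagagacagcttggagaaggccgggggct
Atg5 (chr10:44268089-44268388, plus strand): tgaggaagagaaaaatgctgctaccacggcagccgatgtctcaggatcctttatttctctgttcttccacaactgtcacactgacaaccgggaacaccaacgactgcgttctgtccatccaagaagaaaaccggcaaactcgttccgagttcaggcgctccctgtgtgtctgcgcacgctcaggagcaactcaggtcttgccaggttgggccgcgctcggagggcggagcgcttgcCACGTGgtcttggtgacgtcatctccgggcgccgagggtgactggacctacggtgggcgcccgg
Ctsd (chr7:142387778-142388077, minus strand): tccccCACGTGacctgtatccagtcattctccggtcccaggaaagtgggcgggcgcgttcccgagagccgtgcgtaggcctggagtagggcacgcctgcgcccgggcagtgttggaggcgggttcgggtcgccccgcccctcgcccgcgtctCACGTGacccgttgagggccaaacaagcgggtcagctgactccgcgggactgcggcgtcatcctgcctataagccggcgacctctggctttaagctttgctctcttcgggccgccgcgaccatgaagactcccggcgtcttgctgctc
Atp6v0b (chr4:117887280-117887579, minus strand): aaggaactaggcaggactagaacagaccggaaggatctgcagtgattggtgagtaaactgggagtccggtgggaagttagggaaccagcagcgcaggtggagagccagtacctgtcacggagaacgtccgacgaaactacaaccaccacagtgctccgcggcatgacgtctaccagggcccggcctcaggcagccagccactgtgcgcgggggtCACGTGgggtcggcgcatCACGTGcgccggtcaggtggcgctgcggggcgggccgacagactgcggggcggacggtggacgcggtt
Ctsl (chr13:64370471-64370770, minus strand): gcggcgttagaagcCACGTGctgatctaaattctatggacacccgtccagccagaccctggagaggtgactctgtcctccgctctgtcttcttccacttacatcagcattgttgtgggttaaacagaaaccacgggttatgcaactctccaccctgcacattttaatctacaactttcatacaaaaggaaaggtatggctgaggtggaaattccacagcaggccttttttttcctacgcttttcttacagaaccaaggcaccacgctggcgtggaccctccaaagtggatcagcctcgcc
Atp6v0e (chr17:26676146-26676445, plus strand): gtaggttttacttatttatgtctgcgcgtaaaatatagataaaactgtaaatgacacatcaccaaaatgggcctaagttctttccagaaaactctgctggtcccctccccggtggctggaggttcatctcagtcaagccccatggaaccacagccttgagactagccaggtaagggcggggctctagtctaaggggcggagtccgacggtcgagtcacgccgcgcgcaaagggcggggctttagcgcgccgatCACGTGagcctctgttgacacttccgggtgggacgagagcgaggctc
Wipi1 (chr11:109611340-109611639, minus strand): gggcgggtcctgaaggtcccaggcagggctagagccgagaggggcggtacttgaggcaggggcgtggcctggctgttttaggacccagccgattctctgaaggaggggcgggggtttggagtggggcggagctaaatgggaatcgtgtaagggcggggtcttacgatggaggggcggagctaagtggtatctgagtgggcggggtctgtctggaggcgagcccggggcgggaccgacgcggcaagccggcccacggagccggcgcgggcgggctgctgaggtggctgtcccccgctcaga
Atp6v1g2 (chr17:35234760-35235059, plus strand): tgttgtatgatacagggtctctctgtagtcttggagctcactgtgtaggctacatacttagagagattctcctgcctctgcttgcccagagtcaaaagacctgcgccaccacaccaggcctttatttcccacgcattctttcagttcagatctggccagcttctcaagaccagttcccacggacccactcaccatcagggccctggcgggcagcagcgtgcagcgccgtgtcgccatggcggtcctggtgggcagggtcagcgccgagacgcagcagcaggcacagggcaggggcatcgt

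The letters CACGTG (the same on both strands) stood in 13 of the 64 genes with a promoter window (20.3%), beside 1559 of 17491 protein-coding genes with one (8.91%). Counting only windows whose start lay in an island, the shares were 28.6% of 42 genes of the set and 12% of 8101 genes in all, so the share with the motif was also higher at open starts over all genes. The longer letters TCACGTGA, which hold CACGTG, stood in 6 genes of the set (9.38%) and in 1.41% of all genes. These 6 were Atg3, Atp6v0d1, Atp6v0e, Atp6v1a, Ctsa and Ctsd. Each held the letters in a window whose start lay in an island, as did 197 of the 246 genes with them over all genes.

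Lamp1 held the most copies of CACGTG in the set, with the first bases 61, 45, 28 and 15 bases upstream of the start. Atg3 held 2, at 94 and 71 bases upstream, Atp6v0b held 2 at 36 and 18, and Ctsa held 2 around the later of its starts. The motif lay 14 bases upstream in Atg5 and 3 bases downstream of the start in Atp6v0e. Among genes whose own island covered the start, the 9 with CACGTG had a median fold of 1.80 (range 1.31 to 2.68) and the 26 without had 1.75 (1.08 to 4.64), so the ranges overlapped. The letters CTTTGAT, a core sequence bound by TCF-1 (either strand), stood in 6 genes of the set (9.38%), beside 3.74% of all genes. In 2 of these 6, Atg4a and Ulk4, the start of that window lay in an island. The same held for 210 of the 654 genes with these letters over all genes. Counting only windows whose start lay in an island, the shares were 4.76% in the set and 2.59% over all genes. A match to a motif describes letters and not binding.

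**Figure D1:**
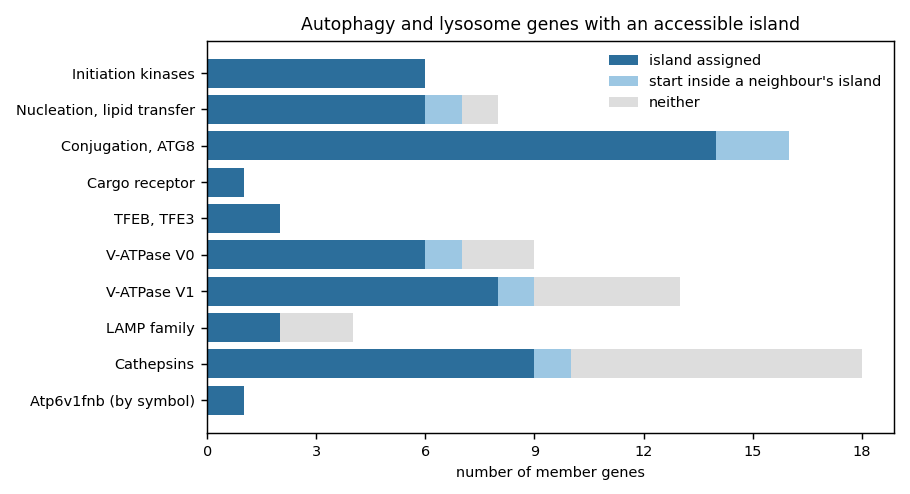
Number of genes in each role group (bars, genes) with an island assigned to them (dark), with no assigned island but a RefSeq start site inside an island given to a neighbouring gene (pale), and with neither (grey). The initiation group and the conjugation group have no grey part, and the cathepsins have the largest one, 8 of 18 genes.

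The group of initiation kinases and their partners, as the symbol rule drew it, was covered without exception. All 6 had an island (8 islands), each of the 8 was called in the authors' deposited table, and together they held 192 peak-side and 283 control-side reads (pooled fold 1.97, 1.63 to 2.37). This stands beside the 49.2% of all genes with an island and the 82.3% of all islands called in that table. Atg13, the adaptor of the ULK complex, had 45 peak-side and 42 control-side reads in an island over its end (chromosome 2, 91708601 to 91711800) and a fold of 3.11 (2.00 to 4.85), with the lowest FDR of the set in the authors' deposited table (2.45e-09). That island also held an end of the neighbouring Harbi1. Ulk1, the main initiating kinase, had 31 peak-side and 58 control-side reads at its start (fold 1.55, 0.969 to 2.44) and 13 peak-side and 20 control-side reads in a second island within the gene (1.89, 0.862 to 3.98). Ulk2, its close relative, had 25 peak-side and 42 control-side reads (1.73, 1.01 to 2.90). Ulk3 had 19 peak-side and 30 control-side reads (1.84, 0.977 to 3.37) in an island that also held an end of Scamp2. Atg101, which stabilises Atg13, had 23 peak-side and 42 control-side reads (1.59, 0.912 to 2.70). Ulk4, a kinase-like family member, had 36 peak-side and 49 control-side reads over 2 islands (2.13, 1.35 to 3.34), and the richer of these lay 8159 bp from the gene end, over the start given by RefSeq. The intervals of these genes overlap, so they cannot be ranked at this depth.

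The group that recruits lipid and membrane was led by Wipi1. Wipi1, a reader of the phosphoinositide that marks the growing membrane, had 72 peak-side and 118 control-side reads in an island of only 1200 bp (chromosome 11, 109611001 to 109612200), the most of any island in the set. At 60 peak-side reads per kb it stood at a level that 0.555% of all islands reach, while its fold of 1.77 (1.30 to 2.39) was near the median of the set. Wipi2, which links the membrane mark to conjugation, had 38 peak-side and 49 control-side reads (2.25, 1.43 to 3.51). Atg2a, a lipid transfer protein, had 37 peak-side and 62 control-side reads at its start and 14 peak-side and 20 control-side reads in an island between genes 5097 bp away (pooled fold 1.80, 1.25 to 2.59). Atg14, which directs the lipid kinase to autophagy, had 18 peak-side and 29 control-side reads (1.80, 0.942 to 3.35). Becn1, the Beclin 1 gene, had 17 peak-side and 40 control-side reads (chromosome 11, 101301401 to 101302600) with a fold of 1.23 (0.655 to 2.22). The authors' deposited table did not call it (FDR 0.169). Atg2b, with 9 peak-side and 18 control-side reads (1.45, 0.574 to 3.4), was likewise not called there. No island was given to Atg9b, though 1 lay over its body or within 1 kb of it.

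Conjugation and ATG8 genes had islands at 14 of 16 genes, beside 49.2% of all genes. Of their 15 islands 12 were called in the authors' deposited table, a share near the 82.3% of all islands. Atg3, the enzyme that attaches ATG8 proteins to lipid, had 49 peak-side and 70 control-side reads (2.03, 1.38 to 2.97) in an island shared with an end of Slc35a5. Atg5 and Atg12 are joined to each other in the conjugation machinery. Atg5 had 42 peak-side and 56 control-side reads (2.18, 1.42 to 3.30). Atg12 had 41 peak-side and 58 control-side reads (2.05, 1.34 to 3.11) in an island that also held an end of Ap3s1. Atg16l1, which completes the complex of Atg5 and Atg12, had 19 peak-side and 27 control-side reads (2.04, 1.07 to 3.81). Its relative Atg16l2 had 37 peak-side and 47 control-side reads (2.28, 1.44 to 3.59). Atg10, the enzyme that joins Atg12 to Atg5, had 30 peak-side and 42 control-side reads (2.07, 1.25 to 3.39). Atg7, the activating enzyme for both conjugation routes, had 10 peak-side and 31 control-side reads over its upstream end (chromosome 6, 114642401 to 114644000). Its fold of 0.936 (0.409 to 1.96) was the only one under 1 in the set, but the interval reaches nearly to the folds of Atg5 and Atg3.

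The ATG8 genes encode the small proteins that coat the growing membrane, and their folds ran between 1.28 and 4.35. Gabarapl1 had 18 peak-side and 12 control-side reads (chromosome 6, 129533201 to 129535400) 9 bp inside its gene end, at 4.35 fold (1.98 to 9.90, FDR 1.2e-06 in the authors' deposited table). Gabarap had 22 peak-side and 50 control-side reads (1.28, 0.736 to 2.15) in an island that also held an end of Ctdnep1. Gabarapl2 had 27 peak-side and 41 control-side reads (1.91, 1.13 to 3.18). Map1lc3a had 36 peak-side and 47 control-side reads (2.22, 1.40 to 3.50) in an island that also held an end of Pigu. Map1lc3b, which encodes the common LC3 marker of autophagosomes, had 22 peak-side and 47 control-side reads over its start (1.36, 0.779 to 2.30) and 25 peak-side and 48 control-side reads in a 600 bp island between genes, 4438 bp away (1.51, 0.893 to 2.50). The intervals of Gabarapl1 and Gabarap overlap only between 1.98 and 2.15. The processing enzymes Atg4c and Atg4d had folds of 1.71 (0.698 to 3.95) and 1.5 (0.932 to 2.37).

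Sqstm1, the p62 cargo receptor, had 1 broad island of 5400 bp over its start, with 50 peak-side and 82 control-side reads (1.77, 1.22 to 2.54). Of the transcription factors, Tfeb had 32 peak-side and 64 control-side reads in an island over 2 of its start sites (1.45, 0.918 to 2.25) and 14 peak-side and 36 control-side reads in another over the far end of the gene (1.13, 0.562 to 2.14). Tfe3 had 19 peak-side and 27 control-side reads (2.04, 1.07 to 3.81).

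**Figure D2:**
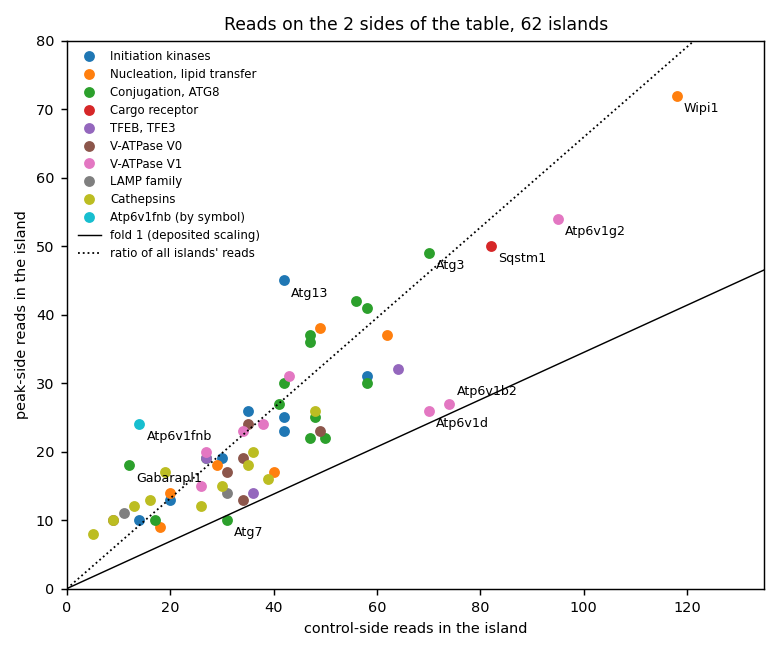
Control-side reads (x axis, reads) against peak-side reads (y axis, reads) in each of the 62 islands, coloured by role. The solid line marks a fold of 1 under the deposited scaling and the dotted line the ratio of reads over all islands of the table. Of the 62 islands, 1 (Atg7) lies under the solid line and 36 lie under the dotted one.

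The V-ATPase pumps protons into the lysosome. Of 22 subunit genes, 14 had an island of their own (6 of 9 in the membrane sector V0 and 8 of 13 in the catalytic sector V1), beside 49.2% of all genes. The authors' deposited table called 4 of the 6 V0 islands and 6 of the 8 V1 islands, beside 82.3% of all islands. The V0 islands held 106 peak-side and 192 control-side reads (pooled fold 1.6, 1.25 to 2.04) and the V1 islands 220 peak-side and 407 control-side reads (1.57, 1.32 to 1.85). In V0, Atp6v0b, a subunit of the proton-carrying ring, had 24 peak-side and 35 control-side reads (1.99, 1.13 to 3.44), Atp6v0e had 19 peak-side and 34 control-side reads (1.62, 0.873 to 2.92) and Atp6v0c, the ring's main subunit, had 17 peak-side and 31 control-side reads (1.59, 0.826 to 2.96). The a subunits, which form the proton channel, included Atp6v0a2 with 23 peak-side and 49 control-side reads (1.36, 0.792 to 2.28) and Atp6v0a1 with 13 peak-side and 34 control-side reads (1.11, 0.537 to 2.16), neither called in the authors' deposited table. Atp6v0a4, the kidney form, had an island 17.1 kb inside the gene with 10 peak-side and 9 control-side reads (3.22, 1.18 to 8.96) and none at its start.

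In V1, Atp6v1g2 had 54 peak-side and 95 control-side reads (1.65, 1.16 to 2.33) in an island of 5800 bp, the widest of the set, which also held an end of Nfkbil1. Atp6v1e1, a stator subunit, had 31 peak-side and 43 control-side reads (2.09, 1.27 to 3.4), Atp6v1f 24 peak-side and 38 control-side reads (1.83, 1.05 to 3.13), and Atp6v1c1 23 peak-side and 34 control-side reads (1.96, 1.10 to 3.43). Atp6v1h, a regulatory subunit, had 20 peak-side and 27 control-side reads (2.15, 1.14 to 3.98). Atp6v1b2, the B subunit of most cells, had 27 peak-side and 74 control-side reads (1.06, 0.655 to 1.66), and Atp6v1d, in the central stalk, had 26 peak-side and 70 control-side reads (1.08, 0.659 to 1.71). Both lay lowest among the V1 folds. These islands also held an end of another gene, Slc18a1 and Eif2s1, and neither was called in the authors' deposited table (FDR 0.346 and 0.315). Atp6v1fnb, a gene named for its place next to Atp6v1f and not a pump subunit, entered by its symbol. Its island, inside the neighbouring gene Kcp and 372 bp from its end, had 24 peak-side and 14 control-side reads and the largest fold of the set (4.97, 2.47 to 10.4).

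Of 4 LAMP genes, 2 had an island, beside 49.2% of all genes. Lamp1, the major LAMP protein of lysosomes, had 14 peak-side and 31 control-side reads over its start (chromosome 8, 13158601 to 13160000) at 1.31 fold (0.644 to 2.54), not called in the authors' deposited table. Lamp2, which also serves chaperone-mediated autophagy, had none at its start but 11 peak-side and 11 control-side reads in an island 16541 bp from the gene (2.90, 1.14 to 7.38). Lamp3 and Lamp5, of dendritic cells and neurons, had none.

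Of 18 cathepsin-named genes, 9 had an island, a share near the 49.2% of all genes. Of their 11 islands 8 were called in the authors' deposited table, beside 82.3% of all islands (pooled fold 1.76, 1.44 to 2.13). Ctsh, an aminopeptidase, had 3 islands, the most of any gene in the set, with 39 peak-side and 54 control-side reads (pooled fold 2.09, 1.35 to 3.22). Ctsd, the main aspartic protease of lysosomes, had 26 peak-side and 48 control-side reads (1.57, 0.936 to 2.58), Ctsl had 20 peak-side and 36 control-side reads (1.61, 0.884 to 2.86) and Ctsc, which activates granule proteases, had 18 peak-side and 35 control-side reads (1.49, 0.795 to 2.71). Ctsb had 16 peak-side and 39 control-side reads (1.19, 0.621 to 2.18), and Ctsf had 12 peak-side and 13 control-side reads (2.68, 1.12 to 6.36). Ctss, which processes antigen in presenting cells, had 8 peak-side and 5 control-side reads, the fewest of the set (4.64, 1.34 to 18.03). Ctsk, its neighbour on chromosome 3, had none at its start and 13 peak-side and 16 control-side reads between the genes (2.36, 1.04 to 5.23). Ctse had 1 island within the gene (15 peak-side and 30 control-side reads, 1.45, 0.725 to 2.78).

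**Figure D3:**
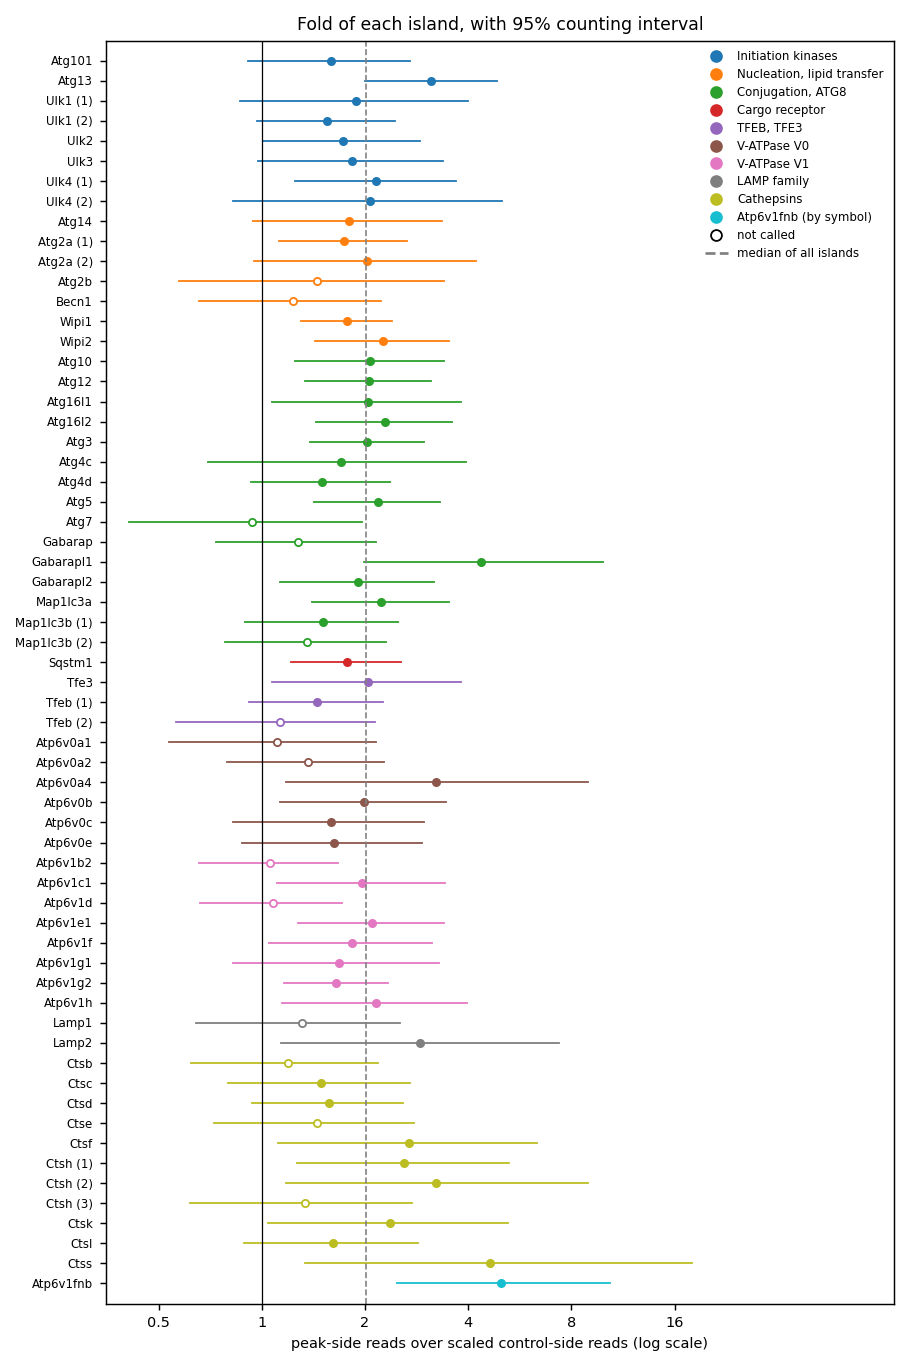
Fold of each of the 62 islands (points, peak-side over scaled control-side reads, log scale) with its exact 95% counting interval (bars), grouped by role, with numbered islands where a gene has several. Open points were not called in the authors' deposited table, and the dashed line is the median of all islands, 2.01, which most intervals cross.

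Of the 23 genes without an island, 6 had a start inside an island that went to a neighbour with a nearer end. Atp6v0d1, a V0 subunit, shared one with Agrp that held 54 peak-side and 61 control-side reads (2.57, 1.75 to 3.77). Atp6v1a, the catalytic subunit of the pump, started in an island given to Naa50 with 42 peak-side and 65 control-side reads (1.87, 1.24 to 2.81). Atg9a, the lipid scramblase of the early membrane, started in one given to Ankzf1 with 33 peak-side and 50 control-side reads (1.91, 1.19 to 3.03). Atg4b, the main ATG8 protease, shared 21 peak-side and 50 control-side reads with Thap4 (1.22, 0.695 to 2.07), Ctsa shared 18 peak-side and 38 control-side reads with Neurl2 (1.37, 0.738 to 2.47), and a later start of Atg4a lay in an island of Psmd10 with 13 peak-side and 19 control-side reads (1.98, 0.901 to 4.24). With these, 61 of the 78 genes had an island or a start in one, including all 16 conjugation and ATG8 genes. Which of the genes at a shared island its reads belong to cannot be told apart.

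The 17 genes with neither were Atg9b, Atp6v0d2, Atp6v0e2, Atp6v1b1, Atp6v1c2, Atp6v1e2, Atp6v1g3, Lamp3, Lamp5, Ctsg, Ctsj, Ctsm, Ctso, Ctsq, Ctsr, Ctsw and Ctsz. Among them, Ctsj, Ctsm, Ctsq and Ctsr belong to the placental cathepsin cluster of rodents, Atp6v1b1 and Atp6v1g3 are kidney forms, Atp6v0d2 is known from osteoclasts and Ctsg from neutrophils. Ctsw, known from natural killer and cytotoxic T cells, was also among them, as were the broadly expressed Ctso and Ctsz.

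Promoter windows of open and of undetected starts differed in CpG content, which the choice of genes did not use. Over the 42 genes of the set with a start in an island, the 300-base window of the first such start held a median of 20 CpG dinucleotides (range 5 to 55), and over the 22 with none it held 3 (range 0 to 22). Over all protein-coding genes the medians were 23 for starts in an island and 4 for the rest, a contrast of like size. Of the 64 genes with a window, 65.6% had a start in an island, beside 46.3% of 17491 genes. Becn1, Atg16l1, Atg12, Map1lc3a, Ctsb, Ctse, Ctsh, Ctsw, Atp6v0a2, Atp6v0d2, Atp6v1b2, Atp6v1c1, Atp6v1g1 and Atp6v1h had no window in the RefSeq table used.

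**Figure D4:**
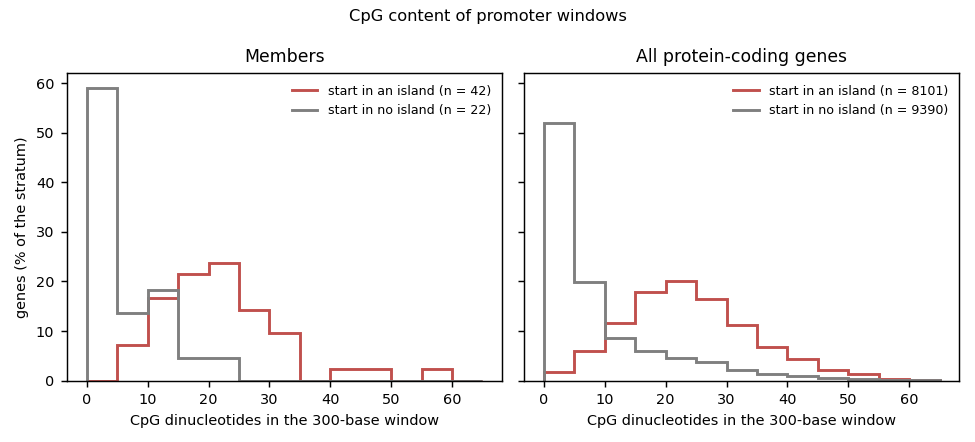
CpG dinucleotides in the 300-base promoter window (x axis) of genes with a start in an island and with a start in none (y axis, percent of the genes of each stratum), for the set (left) and for all protein-coding genes (right). In both panels the undetected starts lie at low counts, with medians of 3 and 4.

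In position, the islands of the set were mainly gene-end islands. Within 1 kb of a gene end lay 52 of 62 (83.9%, exact binomial 95% interval 72.3 to 92.0), beside 55.7% of all islands, and the other 10 were 6 within genes and 4 between genes. The interval treats islands as independent, although some genes gave more than 1. The rule admitted only islands within 50 kb of a gene end, whereas all islands include farther ones. Part of this contrast therefore follows from the rule. No island lay farther than 17.1 kb from its gene end. Most genes with an island had exactly 1 (49 of 55, 89.1%), beside 72.1% of all genes with an island. The ends of another gene fell in 9 of the 62 islands (14.5%), beside 8.51% of all islands. Islands that held the end of just 1 gene were also more frequent in the set (39 of 62, 62.9%) than over all islands (41.5%). The 50 kb limit bears on both of these shares of islands as well. Where an island held a start site, its centre lay a median of 1.5 bp upstream of the start in the set and 81.5 bp downstream over all genes, with interquartile ranges of -209 to 362 bp and -212 to 376 bp that nearly coincide.

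**Figure D5:**
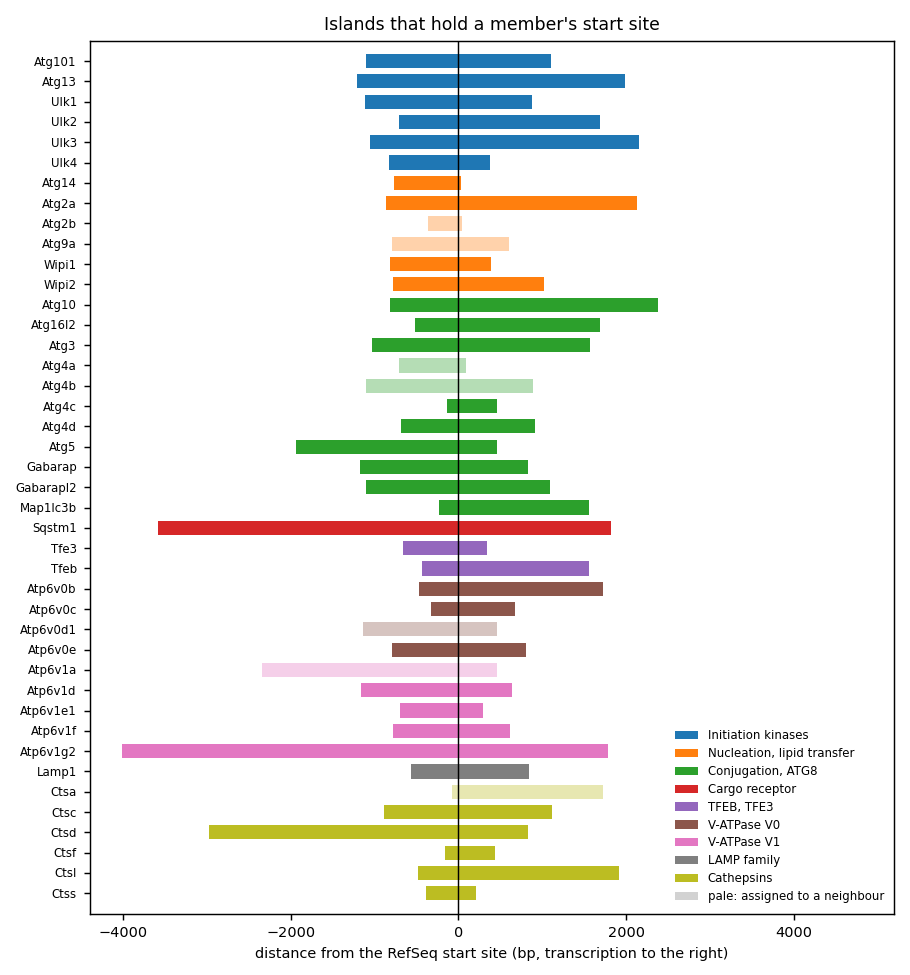
Extent of the island that holds a RefSeq start site (bars, bp from the start, transcription to the right) for the 42 genes of the set that have one, coloured by role. Pale bars are islands assigned to a neighbouring gene, and the widest, at Atp6v1g2, covers 5800 bp.

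The islands of the set had a median of 21 peak-side and 35.5 control-side reads, beside 18 peak-side and 27 control-side reads over all islands. Among gene-end islands the medians were 23 peak-side and 39.5 control-side reads in the set, beside 23 peak-side and 37 control-side reads over all gene-end islands. Their peak-side reads per kb had medians of 12.2 in the set and 12.3 over all gene-end islands. Folds had a median of 1.79 (interquartile range 1.49 to 2.13) in the set and 2.01 (1.61 to 2.62) over all islands. Within gene-end islands it was 1.75 (1.45 to 2.07) in the set and 1.86 (1.54 to 2.27) over all. The authors' deposited table called 48 of the 62 islands (77.4%, beside 82.3% of all islands), and 44 of the 55 genes had at least 1 of these (80%, beside 85.6% of all genes with an island). Of the 48, 17 had a counting interval that reached 1 or below. The deposited p-values match a Poisson tail around the scaled control-side reads, which leaves out the counting error of that side.

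No island of the set passed a test against the ratio of peak-side to control-side reads over the whole table. By a two-sided exact binomial test around that ratio, with Benjamini-Hochberg adjustment over all islands, 0 of 62 were above it and 0 below, beside 0.0965% and 0.265% of all islands. The lowest adjusted p in the set was 0.320, for Atp6v1fnb, at 2.60 times the ratio of the table (1.29 to 5.44). At an unadjusted p under 0.05, 3 islands were above (Atp6v1fnb, Atg13 and Gabarapl1) and 2 below (Atp6v1b2 and Atp6v1d), which is 8.06% of the set beside 8.22% of all islands. The test compares the reads of the sides of 1 table and not of conditions.

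Genes of the pathway outside the symbol rule were listed separately. Over all genes, 49.2% had an island and 85.6% of these had a called one in the authors' deposited table. Of 25 further autophagy genes, 21 had one and 19 a called one in the authors' deposited table. Rb1cc1, the scaffold of the ULK complex, had 26 peak-side and 53 control-side reads (1.42, 0.854 to 2.32), and Uvrag, a partner of Beclin 1, had 67 peak-side and 74 control-side reads (2.63, 1.86 to 3.71). Pik3c3, the lipid kinase itself, had 12 peak-side and 15 control-side reads (2.32, 0.992 to 5.31). Nbr1, Snap29, Vamp8 and Vps41 had none. Of 25 further lysosome genes, 21 had an island and 17 a called one in that table, among them Mcoln1, the lysosomal calcium channel, with 34 peak-side and 48 control-side reads (2.05, 1.28 to 3.26), and Npc1, a cholesterol exporter, with 48 peak-side and 64 control-side reads (2.18, 1.46 to 3.21). Of 15 genes for nutrient sensing at the lysosome, 13 had an island and 12 a called one in that table. Mtor, the growth kinase that restrains autophagy, had 39 peak-side and 40 control-side reads (2.83, 1.77 to 4.51), and Rheb, its activator, had 63 peak-side and 92 control-side reads (1.99, 1.42 to 2.77). The median folds of the islands of these lists were 1.82, 2.16 and 2.13, beside 2.01 over all islands, and none of their islands passed the test around the ratio of the table.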

How the data were processed

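One table of the whole series was used. Per the submitters' processing notes, Bowtie2 2.4.2 (a read aligner) and SICER 2.0 (an island caller) were used with build mm10. The authors deposited read counts without normalization, a fold (ratio of peak-side to scaled control-side reads), a p-value and an FDR (q-value) per island, per the file headers. Whether libraries were pooled is not given in the sources used here, and no column names a library, so the planned count model of Tcf7-KO against control cells was not run. The factor of 0.345 was read from the deposited folds, which were recomputed from the counts. Coordinates were made 1-based. Genes came from RefSeq (GRCm38.p6, the assembly that mm10 names), promoter windows (64 of 78 genes) and start sites from its promoter table, with the gene's strand. Equal distances were settled by the island's middle. Deposited calls were read across all islands, and the exact binomial test was run across all 16584 islands with SciPy 1.17.1 in Python 3.11.15. The test was first tried on counts simulated from the binomial model it assumes, which cannot show its error rate under replicate variation.

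Named genes are the 4 of each role with the most peak-side reads, a fixed list of core genes, all genes without an island and the 4 largest and 4 smallest folds at 20 or more peak-side reads. All other genes with an island were also named, after their values were seen, as were the examples from the other lists. The genes and lists were chosen with earlier results of these data known. Alternatives covered gene assignment, read minimum, FDR threshold, scaling and test. Some of the marker genes looked up to check the cell type are not reported here.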

Additional observations from a re-analysis of the deposited data

How the results depend on the processing

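The level of every fold rests on the scaling of the control side. Scaled by the reads in all islands, which sets the pooled fold of the table to 1 by construction, 3 islands of the set were called in place of 48 (Atp6v1fnb, Atg13 and Gabarapl1; 9.19% of all islands), the median fold was 0.934 in place of 1.79, and 36 islands in place of 1 had a fold under 1. A fold over 2 beside the FDR left 24 called (38.7%, beside 50.4% of all islands). At least 20 peak-side reads left 32 genes with an island in place of 55 and put 93.9% of islands at a gene end in place of 83.9%. Over all islands the share at a gene end also rose at that minimum, to 5630 of 7230, from 55.7%. Genes with an island numbered 52 within 10 kb, 50 with gene-end islands only, 55 at any distance, 60 over gene bodies, 45 by nearest start site (where only genes with a promoter window can count) and 61 with starts in any island. An exact binomial test around the deposited factor called 32 (51.6%, beside 61% of all islands), and an FDR under 0.01 called 33 (53.2%, beside 64.2%). The median fold stayed between 1.75 and 1.77 with 20 or more reads, 1 island per gene, gene-end islands or no shared islands. The binomial tests around the table's ratio, starts in any island, islands under a fold of 1 and shared islands were chosen after seeing the data. No paired analysis was possible because no column names a library or replicate, which also holds for leaving out replicates, DESeq2 and the unfiltered fit.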
